A study of Arabidopsis thaliana with 4 samples.

Results

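The genes described here are 8 genes of potassium transport and of its calcium-dependent control in Arabidopsis thaliana roots. They are the potassium carrier HAK5, the potassium channels AKT1, SKOR and GORK, the protein kinases CIPK23 and CIPK9 and the calcium sensors CBL8 and CBL9. They were picked by gene code from the deposited table, where each code had 1 probe set, so that 8 of the 21537 probe sets that name a gene were used (8 of 22228 genes). The choice was made with earlier results of the same arrays known, among them the Al response of HAK5 and the genotype difference of SKOR and CBL8. Every value of these genes is therefore a description, and the differences support nothing beyond themselves.

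Transcript signals were measured on 4 arrays with total RNA from roots of 4-week-old plants grown in hydroponic culture. The 4 groups were wrky47 with Al, wild type with Al, wrky47 in control solution and wild type in control solution. All plants stood for 6 h in 0.5 mM CaCl2, which the Al groups received together with 25 µM AlCl3 and the control groups received alone. The mutant allele is wrky47-1, and the labels state neither the kind of mutation nor how many plants were pooled for an array. Each group had 1 array, so the spread between replicates is unknown and no p-value was computed.

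Roots take up potassium through a high-affinity carrier, which works when the ion is scarce, and through an inward channel, which works at higher supply. Calcineurin B-like proteins (CBLs) bind calcium and recruit CBL-interacting protein kinases (CIPKs) to membranes, where the kinases phosphorylate transporters. CBL9, with its close relative CBL1, brings CIPK23 to the plasma membrane, and CIPK23 activates both AKT1 and HAK5. SKOR passes potassium from the stele into the xylem, and GORK lets potassium out of root epidermis and guard cells.

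HAK5, SKOR and CBL8 were the members past 2-fold in a comparison. HAK5 was 3.45-fold lower with Al in wrky47 and 2.49-fold lower in wild type. SKOR was 3.34-fold lower with Al in wild type, and in control solution its log2 difference between wrky47 and wild type was -1.08. CBL8 was 2.1-fold higher in wrky47 than in wild type in control solution. AKT1, CIPK23 and CBL9 lay below 0 and GORK above 0 in both genotypes with Al, all within 2-fold, and CIPK9 was below the detection floor on every array.

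The floor was set on each array at the 40th percentile over gene probe sets, a linear signal of 89.1 in wrky47 Al, 88.8 in WT Al, 93.5 in wrky47 control and 96.8 in WT control. A gene was called measured in a comparison if it was above the floor on each array used, and 2-fold corresponds to a log2 difference of 1. Of the 8 genes, 6 were above the floor on all 4 arrays, SKOR was on 3 and CIPK9 on 0. WRKY47 (AT4G01720) is the gene that the mutant is named after. Its signals were 24.1 in wrky47 Al, 203 in WT Al, 27.5 in wrky47 control and 173 in WT control. It was thus at least 2.28-fold lower in wrky47 Al and at least 1.85-fold lower in wrky47 control than in wild type, with the mutant signals below the floor. As a measure of error within the arrays, genes with exactly 2 measured probe sets were used, 75 to 86 in number per comparison. Their probe sets differed from each other by a median of 0.13 to 0.25 and a 90th percentile of 0.31 to 0.48 on the scale of log2 differences. This gap covers error of the probes and not the spread between plants. The 6 control probe sets of the Dap spike-in had a mean log2 signal of 8.25 in wrky47 Al, 8.27 in WT Al, 8.23 in wrky47 control and 7.70 in WT control, so the WT control array stood apart from the other 3. That array is used in every wild-type Al response, every genotype difference in control solution and every difference of the Al responses. Among these are both comparisons in which SKOR passed 2-fold, the one in which CBL8 did and that of HAK5 in wild type. The part of the array in them was not tested.

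**Figure D1:**
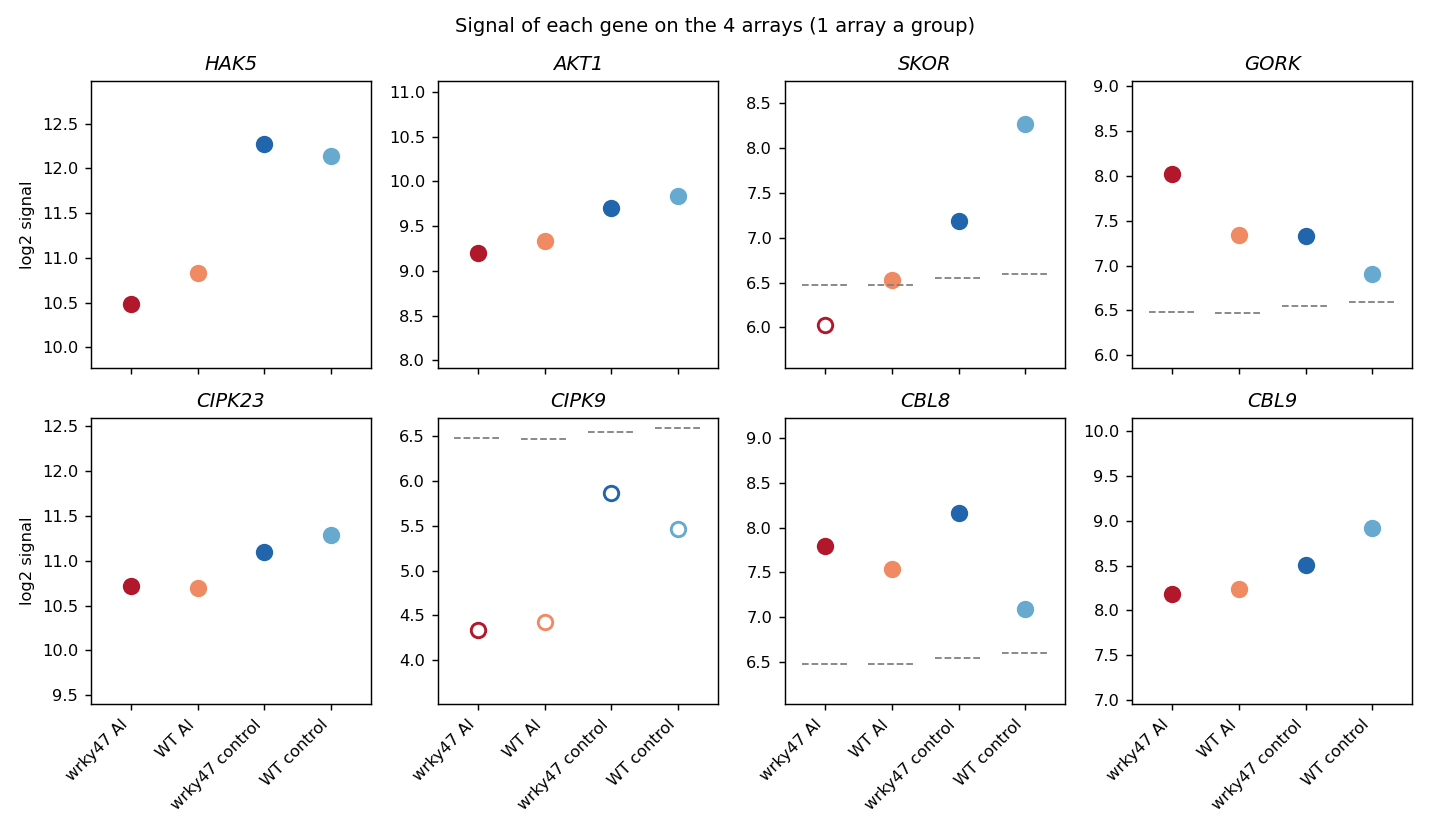
The log2 signals of the 8 genes are plotted for the arrays wrky47 Al, WT Al, wrky47 control and WT control, each point being 1 array and each panel spanning the same log2 width. Dashed ticks mark the floor of each array where it falls inside the panel, and open points are below it. HAK5 is lower on both Al arrays, SKOR is highest in WT control, and CBL8 is lowest in WT control.

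HAK5 (AT4G13420, probe set 254743_at, chr4:7797037-7802174, minus strand) is the high-affinity potassium carrier of the root and the gene most used as a reporter of low potassium. The positions given here are those of the probe set alignments in the deposited table, and no source used here names their genome build. The signal of HAK5 was 1427 in wrky47 Al, 1816 in WT Al, 4925 in wrky47 control and 4526 in WT control. Both Al arrays were below both control arrays. The log2 difference with Al was -1.79 in wrky47 and -1.32 in wild type, or -1.73 and -1.20 after subtracting the median of all measured probe sets. In wrky47 only 42 of the 12493 measured probe sets lay lower, since HAK5 was in position 43 from the lowest, and in wild type it was in position 118 of 12470. Between the genotypes HAK5 differed by -0.35 in Al and 0.12 in control solution (log2, wrky47 minus WT), both within the central 95% of all probe sets.

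AKT1 (AT2G26650, 267610_at, chr2:11331964-11336444, minus strand) is the inward channel of root epidermis and cortex. Its signal was 589 in wrky47 Al, 645 in WT Al, 829 in wrky47 control and 914 in WT control. The Al arrays were again the lower ones, by a log2 difference of -0.49 in wrky47 and -0.50 in wild type. These responses were inside the central 95% of all probe sets, as 9.71% of probe sets in wrky47 and 12.8% in wild type lay lower. The genotypes differed by -0.13 in Al and -0.14 in control solution, and the Al responses differed by 0.01. That last value was between -0.06 and 0.01 under the other scalings and offsets, so its sign was not fixed. COBL9, the root hair and epidermis marker above the floor on all 4 arrays, had log2 differences of -0.54 with Al in wrky47 and -0.51 in wild type. The part of the epidermis in the AKT1 values was not tested.

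SKOR (AT3G02850, 258629_at, chr3:619700-623473, minus strand) had the widest span of the 8 genes, 2.24 on the log2 scale. Its signal was 65.5 in wrky47 Al, 92.5 in WT Al, 146 in wrky47 control and 309 in WT control. The value in wrky47 Al was below the floor, and that in WT Al lay only 0.06 above it on the log2 scale. With Al the log2 difference in wild type was -1.74, position 44 from the lowest among 12470 probe sets. In wrky47 only a bound could be given, at least 1.64-fold lower with Al. In control solution the log2 difference between wrky47 and wild type was -1.08, and 14 of 12628 probe sets lay lower. In Al wrky47 was at least 1.04-fold lower than wild type. The call in control solution depended on the scale of low signals, since the difference was -0.93 when an offset of the 20th percentile was used.

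Markers of the stele, the tissue in which SKOR works, were also lower on the arrays where SKOR was low. All 4 stele markers (PHO1, SHR, AHK4 and APL) were above the floor on all arrays. Their summed signal was 1911 in wrky47 Al, 2454 in WT Al, 2695 in wrky47 control and 3551 in WT control, the same order as for SKOR. Most of it came from PHO1, at 1354 in wrky47 Al and 2567 in WT control. With Al the log2 differences of the 4 stele markers ranged between -0.84 and -0.17 in wrky47 and between -1.34 and -0.44 in wild type. In control solution they ranged between -0.65 and -0.29 for wrky47 against wild type. The 4 endodermis markers were SCR, CASP1, ESB1 and PER64. Their summed signal was 796 in wrky47 Al, 995 in WT Al, 2935 in wrky47 control and 5208 in WT control. Root hair and epidermis markers summed to 219 in wrky47 Al, 277 in WT Al, 376 in wrky47 control and 556 in WT control. Of these only COBL9 was above the floor on all arrays. Both sums had the order of SKOR, so that order was not particular to the stele. CASP1, ESB1 and PER64 had log2 differences with Al of -2.73 to -1.94 in wrky47 and of -3.41 to -2.21 in wild type, and of -1.04 to -0.83 for wrky47 against wild type in control solution. SCR was nearer to 0 with Al, at -0.49 in wrky47 and -0.35 in wild type, and it lay on the other side for wrky47 against wild type in control solution, at 0.19. Of 4 markers of green shoot tissue, 3 were below the floor on all arrays. The other one, LHCA4, was higher with Al, with signals of 193 in wrky47 Al, 289 in WT Al, 93.5 in wrky47 control (below the floor) and 166 in WT control. The part of these tissues in the SKOR values was not tested, and in whole roots fewer cells of a type and less RNA per cell cannot be told apart.

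GORK (AT5G37500, 249619_at, chr5:14889757-14893250, minus strand), the outward channel, ran the other way from SKOR although both belong to the Shaker family. Its signal was 259 in wrky47 Al, 162 in WT Al, 160 in wrky47 control and 119 in WT control. It was highest with both the mutation and Al and lowest with neither, while WT Al and wrky47 control were nearly equal. With Al the log2 difference was 0.69 in wrky47 and 0.44 in wild type, inside the central 95% of all probe sets. Between the genotypes the difference was 0.68 in Al, where 0.852% of the measured probe sets lay higher, and 0.43 in control solution, where 2.2% did. Both genotype differences were beyond the upper bound of the central 95% of all probe sets, 0.48 in Al and 0.41 in control solution, and neither reached 2-fold.

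CIPK23 (AT1G30270, 245775_at, chr1:10655269-10658524, plus strand), the kinase that activates AKT1 and HAK5, varied least of the 8 genes, with a span of 0.59. Its signal was 1682 in wrky47 Al, 1667 in WT Al, 2198 in wrky47 control and 2512 in WT control. The Al arrays were lower in both genotypes, by a log2 difference of -0.39 in wrky47 and -0.59 in wild type. The genotypes differed by 0.01 in Al and by -0.19 in control solution.

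CIPK9 (AT1G01140, 261581_at, chr1:64397-67512, minus strand) is a kinase known from potassium homeostasis under low supply, where it works with CBL sensors of the vacuole membrane. Its signal was 20.3 in wrky47 Al, 21.5 in WT Al, 58.6 in wrky47 control and 44.1 in WT control. All 4 values were below the floor, at -2.14 to -0.68 relative to it on the log2 scale, so no fold change is given. Both Al values were below both control values. Without a floor CIPK9 would count among the genes past 2-fold with Al in both genotypes.

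CBL8 (AT1G64480, 262004_at, chr1:23948027-23949751, minus strand) is a calcium sensor known from salt tolerance, where it can work with the kinase CIPK24. Its signal was 224 in wrky47 Al, 186 in WT Al, 287 in wrky47 control and 137 in WT control. The WT control array was the low one, and the other 3 lay between 186 and 287. In control solution the log2 difference between wrky47 and wild type was 1.07, and 6 of 12628 measured probe sets lay higher. With the same offset of the 20th percentile it was 0.93, under 2-fold. In Al the genotypes differed by 0.26. With Al the log2 difference was -0.36 in wrky47 and 0.45 in wild type. The Al response in wrky47 minus that in wild type was -0.81, position 22 from the lowest of 12225, and it rests on 1 array a group, with no test.

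CBL9 (AT5G47100, 248827_at, chr5:19129895-19131727, minus strand) is a partner of CIPK23 at the plasma membrane. Its signal was 290 in wrky47 Al, 303 in WT Al, 365 in wrky47 control and 483 in WT control. The order of the 4 arrays was that of SKOR and AKT1, with WT control highest and wrky47 Al lowest. With Al the log2 difference was -0.33 in wrky47 and -0.67 in wild type. The genotypes differed by -0.06 in Al and by -0.40 in control solution. CBL8 and CBL9 thus lay on opposite sides of 0 for wrky47 against wild type in control solution.

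**Figure D2:**
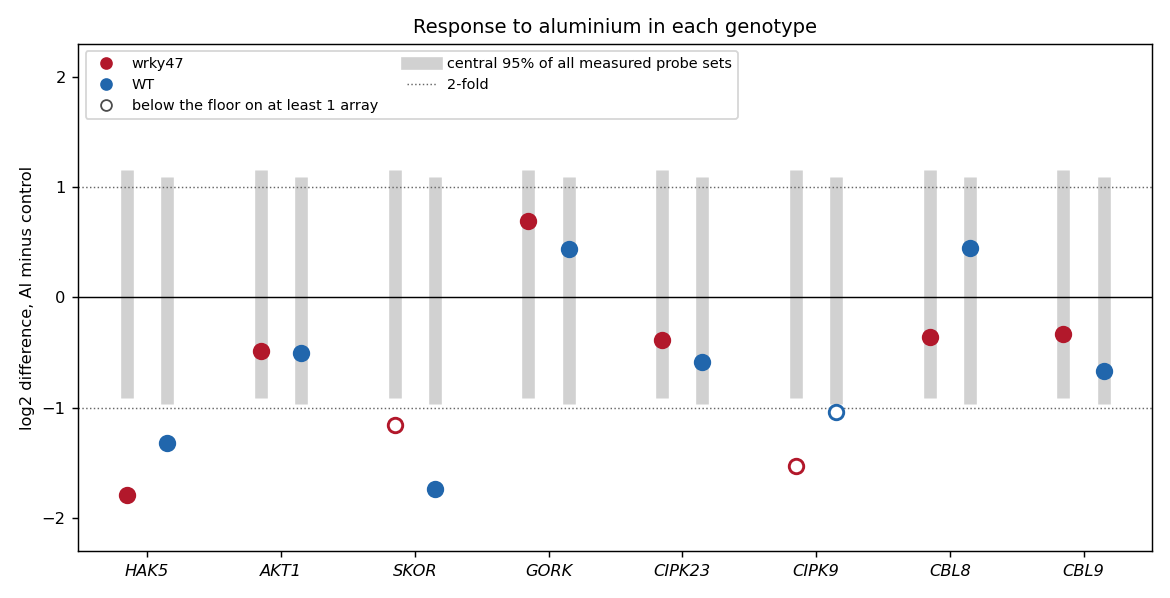
The log2 difference between Al and control is plotted for each gene in wrky47 (left point) and WT (right point), 1 array a group, over the central 95% of all measured probe sets in that comparison (grey). HAK5 at -1.79 in wrky47 and -1.32 in WT and SKOR at -1.74 in WT lie past the 2-fold line among measured genes, and open points are below the floor on at least 1 array.

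With Al the members past 2-fold were all on the lower side. In wrky47 6 genes were measured, of which 1 (HAK5) was lower by 2-fold and 0 higher, against 1.9% of all probe sets lower, 3.41% higher and 5.31% past 2-fold in either direction. In wild type 7 were measured, of which 2 (HAK5 and SKOR) were lower and 0 higher, against 2.29% lower, 3.06% higher and 5.35% in either direction. The measured genes had a median log2 difference of -0.37 in wrky47 and -0.59 in wild type, while the median of all probe sets was -0.06 in wrky47 and -0.12 in wild type. In each genotype 5 of the measured genes lay below 0, against 57.2% of all probe sets in wrky47 and 63.8% in wild type. The Al comparisons were used when the genes were chosen, so nothing is read from these shares.

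Between the genotypes, 0 of 6 measured genes passed 2-fold in Al, where 0.347% of all probe sets did. In control solution 2 of 7 did, CBL8 higher and SKOR lower in wrky47, against 0.277% of all probe sets past 2-fold, 0.0792% higher and 0.198% lower. Genes were chosen on this contrast too, and nothing is read from the share. Of all probe sets past 2-fold in control solution 28.6% were higher in wrky47 as deposited, and 47.1% after quantile normalization, 45.5% after centring and 51.5% after scaling to the 75th percentile. SKOR and CBL8 stayed past 2-fold, on the same sides, under these 3 scalings. SKOR was then close to the line, at -1.04 to -1.01, and CBL8 was at 1.12 to 1.14. Neither was counted with the floor at the 60th percentile or with the 20th percentile added before log2. For the difference of the Al responses 0 of 6 genes passed 2-fold, against 0.229% of all probe sets. Of the latter 67.9% were higher as deposited and 52.2% to 56.5% after the same scalings.

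**Figure D3:**
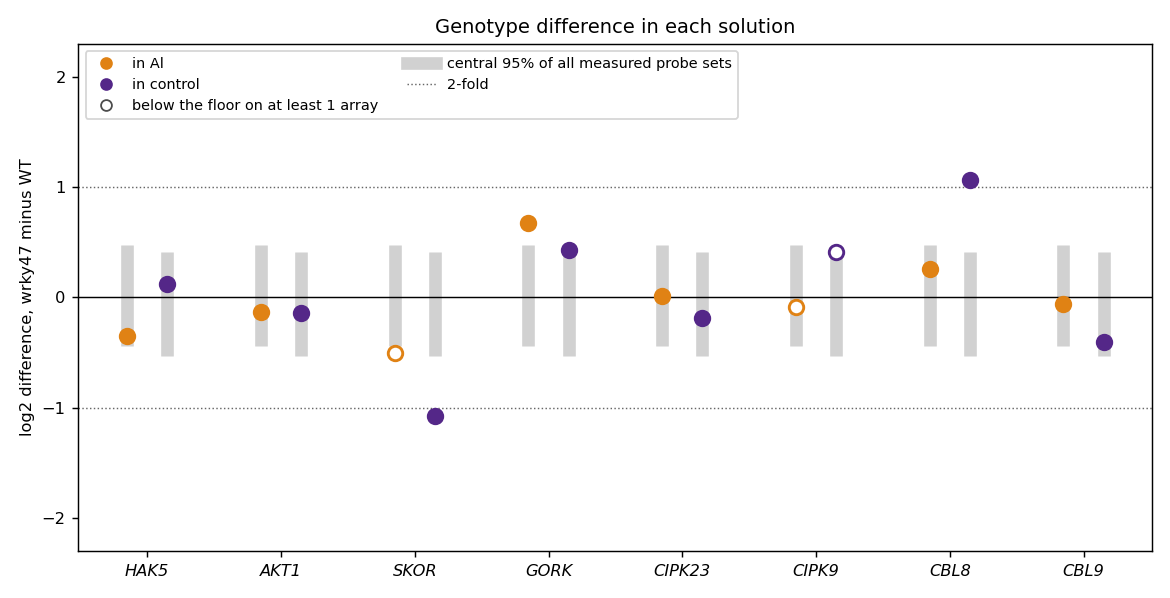
The log2 difference between wrky47 and WT is plotted for each gene in Al (left point) and in control solution (right point), 1 array a group, over the central 95% of all measured probe sets (grey). CBL8 at 1.07 and SKOR at -1.08 lie past the 2-fold line in control solution, and GORK lies above the grey bar in both solutions.

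The wider families were then listed by gene code, 97 genes in 8 lists, of which 96 had a probe set, 69 were above the floor on all 4 arrays and 23 on none. Of the 88 listed genes besides the 8, 63 were measured with Al in wrky47, with 3 higher and 4 lower by 2-fold. In wild type 64 were measured, with 2 higher and 4 lower. That is 11.1% in wrky47 and 9.38% in wild type, where all probe sets had 5.31% and 5.35%. Their median log2 difference was -0.02 in both genotypes. Between the genotypes 0 of 63 passed 2-fold in Al and 0 of 65 in control solution. Of all probe sets 0.347% did in Al and 0.277% in control solution. The probe sets that the deposited table annotates to potassium transport were counted as well. Besides the members there were 80 of them, of which 42 were measured with Al in wrky47 and 43 in wild type, with 2 higher and 1 lower by 2-fold in each genotype. The 8 genes were drawn from the same families, and the lists were written with earlier results of these arrays known.

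Of the 13 HAK/KUP carriers, the family of HAK5, 10 were measured with Al in wrky47 and 11 in wild type. Besides HAK5, KUP9 was lower with Al, at least 2.68-fold in wrky47, where its Al signal was below the floor, and by a log2 difference of -1.42 in wild type. No other carrier of the family passed 2-fold in either genotype. Of all probe sets 1.9% were lower by 2-fold in wrky47 and 2.29% in wild type, and 5.31% and 5.35% passed it in either direction. Without HAK5 and KUP9, 9 carriers were measured in each genotype. Their median log2 difference was -0.02 in wrky47 and -0.10 in wild type, where all probe sets had -0.06 and -0.12. HAK5 and KUP9 were left out on these same values, which moves the median toward 0, so nothing is read from it.

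Of the 9 Shaker channels, 5 were below the floor on all 4 arrays, namely KAT1, KAT2, AKT2, AKT5 and AKT6. KAT3, a subunit that joins AKT1 in the channel and does not conduct by itself, was measured on all arrays. Its log2 signals were 8.71 in wrky47 Al, 8.86 in WT Al, 9.37 in wrky47 control and 9.30 in WT control. Its Al difference was -0.66 in wrky47 and -0.45 in wild type, on the same side of 0 as that of AKT1. Of the 6 tandem-pore TPK channels, which sit mostly in the vacuole membrane, 5 had a probe set. With Al 2 were measured in both genotypes, none past 2-fold, where 5.31% of all probe sets in wrky47 and 5.35% in wild type were.

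Among 18 other cation carriers, 15 were measured in both genotypes with Al. The xylem loader NPF7.3, which carries nitrate and potassium, was the one past 2-fold, at -1.06 in wrky47. In wild type it was at -0.76. Past 2-fold with Al were 5.31% of all probe sets in wrky47 and 5.35% in wild type. MYB59, a transcription factor that raises NPF7.3 transcription, had log2 differences of -0.98 in wrky47 and -0.79 in wild type. The part of MYB59 in the NPF7.3 values was not tested. Of the 8 listed transcription factors of HAK5 and other potassium genes, 5 were measured with Al in both genotypes. MYB77 was at 0.86 in wrky47 and at 1.79 in wild type, the one value of this list past 2-fold. The 5 factors had a median log2 difference of 0.24 in wrky47 and 0.29 in wild type. Of them, 2 lay below 0 in wrky47 and 1 in wild type, while HAK5 was lower in both. The part of these factors in the HAK5 values was not tested. RAP2.11, a known activator of HAK5, was below the floor on all 4 arrays.

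The CBL family had 10 genes with a probe set, 8 of them above the floor on all arrays. CBL8, for wrky47 against wild type in control solution, was its single member past 2-fold in any of the 5 comparisons. Of all probe sets 0.277% passed 2-fold there. With Al the share was 5.31% in wrky47 and 5.35% in wild type. It was 0.347% between the genotypes in Al and 0.229% for the difference of the Al responses. The 7 other measured sensors, CBL9 among them, differed between wrky47 and wild type by -0.23 to 0.22 in Al. In control solution they differed by -0.40 to 0.10. Their median was -0.06 in Al and -0.18 in control solution. CBL8 was left out on its value, so nothing is read from these. CBL1, the relative of CBL9 that shares CIPK23, had log2 signals of 9.39 in wrky47 Al, 9.27 in WT Al, 9.18 in wrky47 control and 9.36 in WT control. Its Al difference was 0.21 in wrky47, on the other side of 0 from CBL9, and -0.09 in wild type, on the same side.

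Of 26 CIPK genes 21 were measured in each comparison. With Al in wrky47, CIPK13 (1.39), CIPK17 (1.20) and CIPK22 (1.16) were higher by 2-fold and CIPK3 (-1.27), a kinase of abscisic acid and cold signalling, was lower. In wild type CIPK17 was higher (1.42) and CIPK3 lower (-1.45), while CIPK22 was at 0.93 and CIPK13 at 0.47. Of all probe sets 3.41% were higher and 1.9% lower by 2-fold in wrky47, and 3.06% higher and 2.29% lower in wild type. The 20 measured kinases besides CIPK23 had a median of -0.05 in wrky47 and 0.05 in wild type, so that the family had members on both sides. The probe set of CIPK26 also names another gene, and its values may be shared. No CIPK passed 2-fold between the genotypes, where 0.347% of all probe sets did in Al and 0.277% in control solution. The measured kinases ranged between -0.39 and 0.58 in Al and between -0.40 and 0.80 in control solution (log2, wrky47 minus WT). CIPK17 was the highest in both solutions, above the central 95% of all probe sets.

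The last list held other known targets of CIPK23 and phosphatases that oppose CIPK signalling, 5 of them measured with Al. NPF6.3, the nitrate transporter and sensor that CIPK23 phosphorylates, had a log2 difference of -1.33 in wrky47 and -1.16 in wild type. The ammonium transporter AMT1;2 was at -1.61 in wrky47 and -0.90 in wild type, but its relative AMT1;1 was at 0.76 and 0.87. SLAH3, an anion channel, was at -0.97 in wrky47 and -1.27 in wild type. In each genotype 2 of the 5 were lower by 2-fold and 0 higher, NPF6.3 and AMT1;2 in wrky47 and NPF6.3 and SLAH3 in wild type, where 1.9% of all probe sets in wrky47 and 2.29% in wild type were lower.

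**Figure D4:**
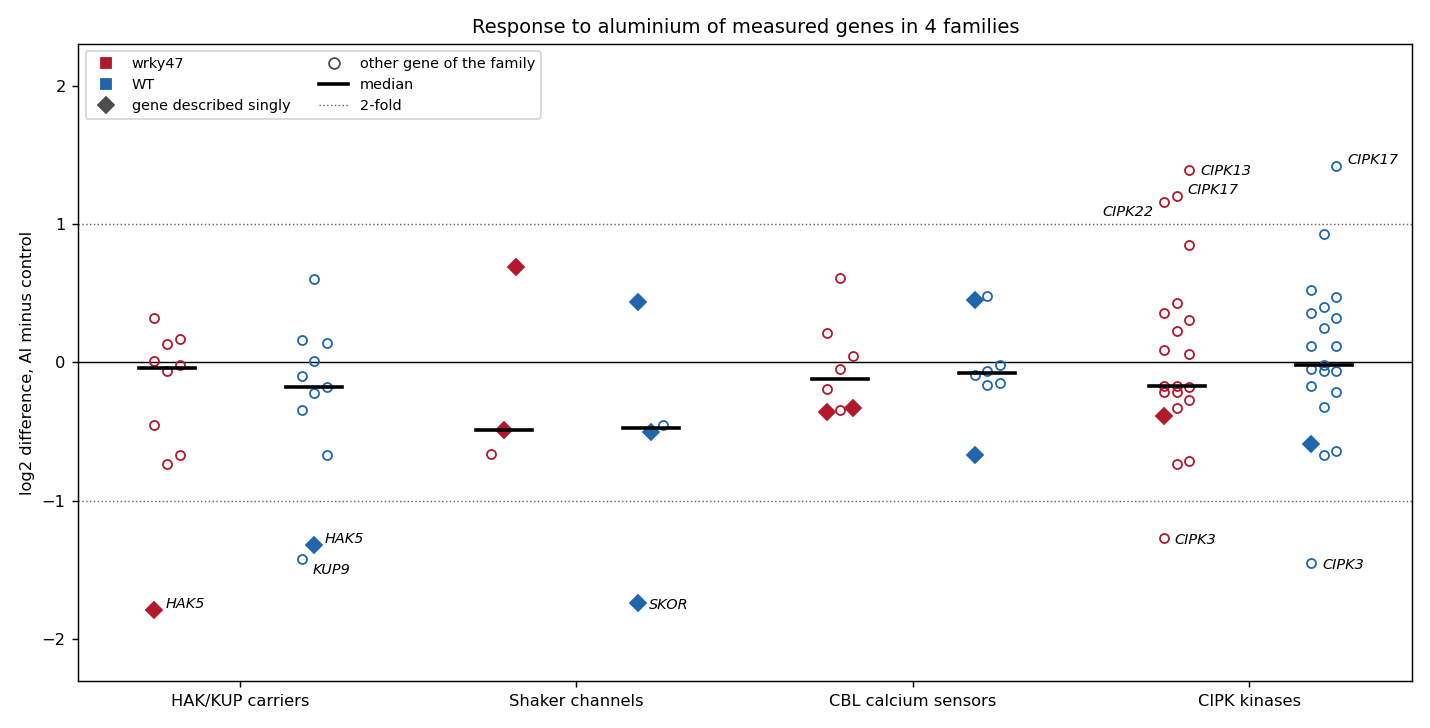
The log2 difference between Al and control is plotted for every measured gene of 4 families in wrky47 (left column of a family) and WT (right column), with the family median as a bar and 1 array a group. Filled diamonds are the genes described singly, and names mark genes past 2-fold: HAK5 in both genotypes, KUP9 and SKOR in WT, and CIPK genes on both sides.

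Profiles over the 4 arrays were compared with those of 5676 genes that have a symbol and were above the floor on all arrays, by the largest gap on any array after each gene's mean was subtracted. For HAK5 the nearest were the subtilase SBT4.12 (gap 0.09 on the log2 scale), the boron exporter BOR1 (0.10) and the high-affinity nitrate transporter NRT2:1 (0.10), and 13 genes lay within 0.2. For GORK they were the nuclease BFN1 (0.06), the proline transporter PROT2 (0.07) and the acyl-CoA synthetase LACS7 (0.07), with 20 genes within 0.2. For CBL8 they were the flavin monooxygenase FMO GS-OX1 (0.14), the plastid enzyme RSH1 (0.24) and the homocysteine methyltransferase HMT3 (0.24), with 1 gene within 0.2. With 4 points per profile such a likeness is a description of these arrays.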

How the data were processed

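The main table deposited by the authors has 22810 probe sets, each with gene codes, a title and alignments, and a log2 signal for each array, per the file headers. The submitters' processing notes name MAS5 without settings, and the labels name Cy3. The columns headed raw hold the same deposited signals as linear intensity values (largest gap 1.6e-06 on the log2 scale). The second deposited table holds the same log2 values (0 differed), by sample name. No source used here states the background correction, the scaling between arrays or the genome build.

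Of the probe sets, 64 are controls and 1209 name no gene, which left 21537. Measured, floor and 2-fold are defined in the report. A listed gene with several probe sets took the one with the highest mean. Bounds are the brighter signal over the other array's floor. The number of arrays limits the precision. The members and lists were chosen with earlier results of these data known. Named genes were the 8 members, WRKY47, the tissue markers, and listed genes past 2-fold or among the 4 largest differences of their list. Added to them were the 3 nearest profiles of each member measured on all 4 arrays with a span of at least 1. CBL1, CIPK26, RAP2.11 and the channels below the floor fall outside this rule and were chosen after their values were seen. The results were recomputed with 11 other settings. The code that computes differences and counts was checked on simulated signals, which is no test of the conditions. Python 3.11.15, numpy 2.4.6 and pandas 2.3.3 were used.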

Additional observations from a re-analysis of the deposited data

Results flagged for a closer look

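CBL8 differed in direction between the genotypes with Al: its log2 difference was -0.36 in wrky47 and 0.45 in WT, -0.81 apart. HAK5 differed in direction between the solutions for wrky47 against WT, at -0.35 in Al and 0.12 in control solution, -0.47 apart. CIPK23 did so by sign only, at 0.01 in Al and -0.19 in control solution, 0.21 apart. Its sign in Al changed in 1 of 9 other settings, and 94.8% of all measured probe sets differed more there. CIPK23 thus had no fixed direction in Al. Each rests on 1 array a group and the differences were not tested.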

How the results depend on the processing

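Each of the 32 member differences was recomputed under every alternative that left it measured. All 276 values stayed within 1.5-fold of the deposited one (largest move 0.28 on the log2 scale), and 4 changed sign, all of them near 0 (AKT1 for the difference of the Al responses, CIPK23 for wrky47 against WT in Al). Only the other scalings and the offset could move a difference. The remaining alternatives change which probe sets count as measured or repeat the same signals, so their agreement was fixed in advance. The counts past 2-fold kept within 1.5 times in 45 of 55 cases. The second table, and for these genes the limit to probe sets that name 1 gene, could not change a count. With Al in wrky47 the count of 1 became 3 without a detection filter (SKOR and CIPK9 joined HAK5) and 2 at 1.5-fold. With Al in WT the count of 2 became 1 with the floor at the 60th percentile, which leaves SKOR out, 4 at 1.5-fold and 1 at 3-fold. For wrky47 against WT in Al the count of 0 became 1 (GORK) at 1.5-fold. In control solution the count of 2 became 0 with the floor at the 60th percentile, at 3-fold and with the 20th percentile added before log2. For the difference of the Al responses the count of 0 became 1 (CBL8) at 1.5-fold. A floor over all probe sets that are not controls, added after seeing the data, changed no count. No paired analysis was possible because each group had 1 array, and no replicate could be left out for the same reason. Low signals limit SKOR, GORK and CBL8, which lay at most 1.67 above the floor on the log2 scale on any array.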
